A study of Homo sapiens with 6 samples.

Results

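The HOX genes examined here are the protein-coding genes of the HOXA, HOXB, HOXC and HOXD clusters, taken as every listed symbol made of HOX, a cluster letter and a number. Of 16832 gene symbols listed in each library, 37 were HOX genes: 11 of HOXA, 9 of HOXB, 8 of HOXC and 9 of HOXD. RefSeq names 39 human HOX genes, and the other 2, HOXB1 and HOXC11, were not analysed here. The RNA sequenced came from U251 cells, a long-established line grown from a human glioma and labelled as wild type in every library. In 3 libraries the cells had received SLCDS for 18 days, and in 3 control libraries they had received PBS. The components of the small-molecule combination SLCDS are not named in the labels, nor is a culture time for the control. The comparison asks how HOX expression in U251 cells given SLCDS, which the series title calls neuronal-like, differed from that in cells without it. Nothing in the labels says that the 3 libraries of a group came from separate cultures, so the p-values measure the spread between these libraries, which may be technical.

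HOX genes encode homeodomain transcription factors that give cells their position along the head-to-tail axis of the embryo. Their order within a cluster follows the order of their expression along that axis: low-numbered genes act in the hindbrain and neck, and high-numbered genes act in the lumbar and sacral trunk, the limb buds and the genital bud. Genes with the same number in different clusters are paralogs, derived from a common ancestral gene. HOX proteins bind DNA together with PBX and MEIS family cofactors, and Polycomb and trithorax proteins maintain the off and on states of the clusters. The developing forebrain normally lacks HOX expression, whereas HOX transcripts are a known feature of many glioma lines.

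Values were FPKM, that is fragment counts divided by transcript length and sequencing depth, so levels of different genes are given per length. The smallest steps between FPKM values of low genes put the libraries at about 16300000 to 17200000 fragments each. This depth is approximate, since only 26 of 77 genes with 1 annotated transcript gave the same scale. Control replicate 3 stood apart from the other libraries: its log2 values over tested genes correlated at 0.976 and 0.977 with those of control replicates 1 and 2, which correlated with each other at 0.997. Counts of genes that passed are therefore given with and without it. The glioma label was checked on GFAP, an intermediate filament of astrocytes, on vimentin and on the neural progenitor factor SOX2. GFAP stood at 127 to 141 FPKM with SLCDS and 312 to 354 FPKM in control, VIM at 1499 to 1570 and 1374 to 1725 FPKM, and SOX2 at 370 to 388 and 420 to 445 FPKM, so all 3 markers were present in every library.

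The HOX code of these cells was led by posterior genes of the HOXD cluster. Averaged over the 6 libraries, HOXD11 had the highest level of the 37 genes at 70.0 FPKM, followed by HOXD10 at 67.0 FPKM, which place them at the 95.7 and 95.4 percentiles of all listed genes. These 2 genes held 40.8% of the summed FPKM of all HOX genes, and the 10 most abundant held 81.5%. HOXD9 followed at 28.4 FPKM, HOXB7 at 20.8 FPKM, HOXB3 at 19.1 FPKM, HOXD4 at 18.3 FPKM, HOXC10 at 16.9 FPKM, HOXD8 at 11.9 FPKM, HOXB9 at 11.3 FPKM and HOXA7 at 9.90 FPKM. HOXD10 lay above HOXD9 in every library. HOXD9 also lay above HOXB7 in every library of both groups, though by very little in SLCDS replicate 3, where both rounded to 20.9 FPKM. HOXC10, at 15.2 FPKM or more in each library, lay above HOXD8, at 14.8 FPKM or less. Over the 6 libraries together, the values of the other neighbours in this order overlapped, those of HOXD11 and HOXD10 included. Within a group some lay apart. HOXB9 lay below HOXD8 and HOXA7 in every control library and above both in every SLCDS library. In SLCDS the range of HOXD11, 59.4 to 64.1 FPKM, lay above that of HOXD10, 53.0 to 58.4 FPKM. In all, 9 HOX genes had a mean of 10 FPKM or more, 20 lay between 1 and 10 FPKM and 8 lay under 1 FPKM.

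**Figure D1:**
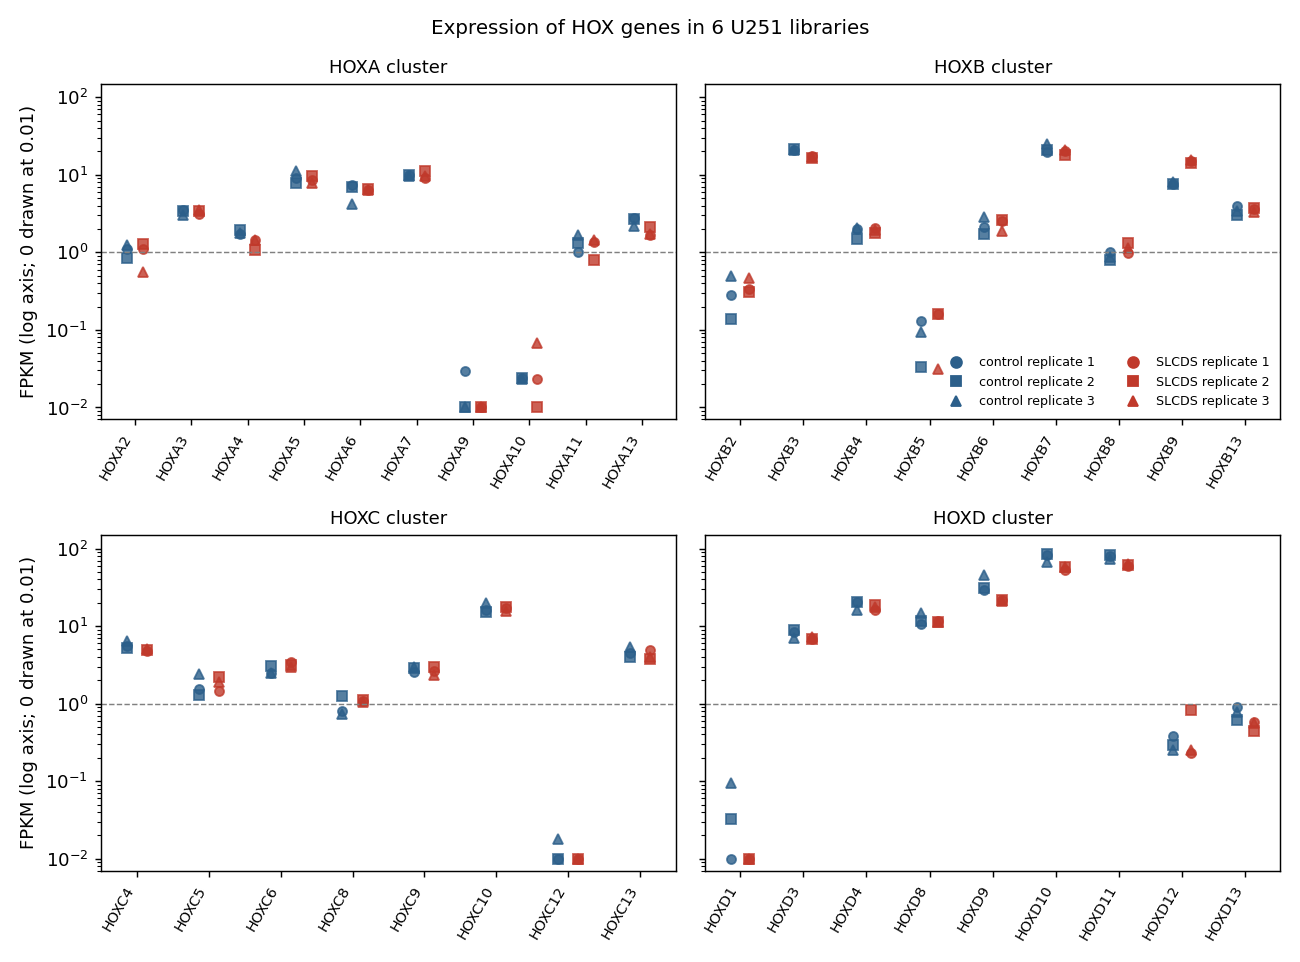
FPKM of the HOX genes described here (log axis, values of 0 drawn at 0.01) in the 3 control and 3 SLCDS libraries, 1 panel per cluster with genes in order of paralog number. The dashed line marks 1 FPKM, and HOXD9, HOXD10 and HOXD11 stand highest in the HOXD cluster, while HOXD12, HOXD13 and HOXD1 lie under the line.

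Expression was not graded along the clusters: high and near-silent genes lay side by side, and paralogs differed widely. In the HOXD cluster the block from HOXD3 to HOXD11 ranged from 7.55 to 70.0 FPKM, while HOXD12 and HOXD13, the genes next to HOXD11 at the posterior end, stood at 0.374 and 0.645 FPKM, and HOXD1, at the anterior end, at 0.0211 FPKM. Among group 10 paralogs, which pattern the lumbar region, HOXD10 and HOXC10 stood at 67.0 and 16.9 FPKM, whereas HOXA10 stood at 0.0273 FPKM. Among group 9 paralogs HOXD9 stood at 28.4 FPKM, HOXB9 at 11.3 FPKM and HOXC9 at 2.75 FPKM, whereas HOXA9 stood at 0.00496 FPKM. Group 13 genes, the most posterior of each cluster, were low throughout: HOXC13 stood at 4.41 FPKM, HOXB13 at 3.51 FPKM, HOXA13 at 2.18 FPKM and HOXD13 at 0.645 FPKM. HOXA9 and HOXA10, which are best known from leukaemia, thus lay as a near-silent pair between HOXA7 at 9.90 FPKM and HOXA11 at 1.27 FPKM.

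The tests were run on genes with at least 1 FPKM in 3 or more libraries, and 29 of the 37 HOX genes passed this filter. HOXA2, HOXA11, HOXB8 and HOXC8 passed it with some libraries under 1 FPKM. The 8 genes under the filter were HOXA9, HOXA10, HOXB2, HOXB5, HOXC12, HOXD1, HOXD12 and HOXD13. Fragment numbers were inferred from the steps between low values. HOXA9 and HOXC12 were above 0 in only 1 library each, control replicate 1 and control replicate 3. That value was taken as 1 fragment, since a single value shows no steps. HOXD1, an anterior gene of hindbrain and dorsal root ganglia, had 0 fragments in every SLCDS library and 0, 1 and 3 fragments in control replicates 1 to 3. HOXA10 had 1, 0 and 3 fragments in SLCDS and 1 in each control library, and HOXB5 had 5, 5 and 1 against 4, 1 and 3. A count of 0 allows up to 3 fragments in a library, so these genes give no comparison between the groups. HOXB2, a hindbrain gene, stood at 0.337, 0.309 and 0.463 FPKM with SLCDS and at 0.279, 0.1396 and 0.502 FPKM in control, and these ranges overlapped. HOXD12 stood at 0.233, 0.829 and 0.251 FPKM with SLCDS, where replicate 2 was the high library, and at 0.385, 0.289 and 0.254 FPKM in control. HOXD13, a gene of the digits and genital bud, stood at 0.572, 0.450 and 0.561 FPKM with SLCDS and at 0.905, 0.611 and 0.769 FPKM in control. Every control library lay above every SLCDS library for HOXD13, but the gene was not tested.

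Among the 29 tested HOX genes, 1 rose and 1 fell in SLCDS in limma's test at an adjusted p under 0.05, and 27 did not pass it. HOXB9 rose and HOXB3 fell. Over all 11506 tested genes 4.28% rose, 1.82% fell and 6.09% passed in either direction, so the HOX shares of 3.45%, 3.45% and 6.90%, which rest on 1 gene in each direction, were near the background. Of the 29 genes, 7 had an unadjusted limma p under 0.05, as did 2139 of all 11506 tested genes. That is the background for the unadjusted counts given below. The log2 fold change, SLCDS minus control on the log2(FPKM + 1) scale, was below 0 for 17 and above 0 for 12 of the 29 genes. Its median was −0.07, against 0.00036 over all tested genes. The library ranges lay apart in 8 HOX genes: SLCDS was higher in 1 and lower in 7, which is 3.45% and 24.1% of those tested, against 15.5% and 13.6% over all tested genes.

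The count of falling HOX genes turned on control replicate 3. Without this library 1 HOX gene rose and 8 fell, namely HOXA4, HOXA13, HOXB3, HOXD3, HOXD4, HOXD9, HOXD10 and HOXD11, while over all tested genes 16.0% rose, 11.8% fell and 27.7% passed in either direction. The 8 falling genes were 27.6% of those tested, above the background for that direction, and the 1 rising gene was 3.45%, below it. Without any 1 of the other 5 libraries, HOXB9 alone of the HOX genes passed. Over all 11506 tested genes 276 to 417 passed in these analyses, fewer than the 701 with all 6 libraries. In bulk RNA, fewer cells that hold a transcript and less of it per cell cannot be told apart.

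**Figure D2:**
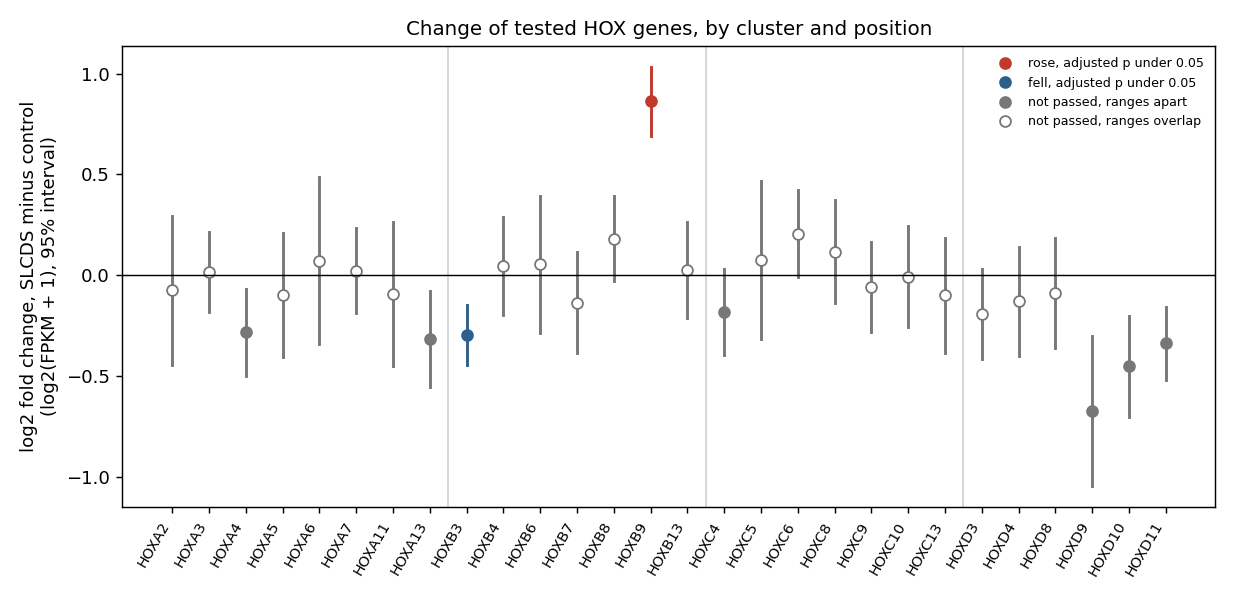
Fold change of the tested HOX genes described here (SLCDS minus control, log2(FPKM + 1) scale) in order of cluster and number, with 95% intervals from limma. HOXB9 is the red point at 0.86, HOXB3 the blue point at −0.30, filled grey points are genes whose library ranges lay apart without passing the test, and all 6 HOXD genes lie below 0, of which HOXD8 moves above 0 without control replicate 3 (0.04).

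HOXB9, a gene of the thoracic and lumbar trunk at the posterior side of the HOXB cluster, stood at 15.2, 14.01 and 15.4 FPKM with SLCDS and at 7.64, 7.51 and 8.03 FPKM in control. The 3 SLCDS libraries all lay above the 3 control libraries, with little spread in either group. Its mean went from 7.73 ± 0.267 FPKM (SD, n = 3) without SLCDS to 14.9 ± 0.756 FPKM with it, an increase of 92.5%. The log2 fold change was 0.86 with an SE of 0.07 (adjusted p = 0.000943 in limma). It passed in all 19 other settings of the processing, including those that left out 1 library, with adjusted p from 3.82e-07 to 0.0138. In the GENCODE annotation no exon of HOXB9 overlaps another gene. The ranges of its neighbours overlapped between the groups. HOXB8, which acts in the trunk and in blood progenitors, stood at 0.993, 1.32 and 1.13 FPKM with SLCDS and at 1.01, 0.789 and 0.871 FPKM in control (limma, adjusted p = 0.341). HOXB7 stood at 19.7 ± 1.44 and 21.8 ± 2.86 FPKM. HOXB13, which lies apart from the rest of the cluster and is best known from the prostate, stood at 3.54 ± 0.212 and 3.48 ± 0.504 FPKM.

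HOXB3, a gene of the hindbrain and neck, stood at 17.6, 16.4 and 17.0 FPKM with SLCDS and at 20.9, 21.4 and 21.1 FPKM in control. All SLCDS libraries lay below all control libraries. Its mean fell by 19.5%, from 21.1 ± 0.250 to 17.0 ± 0.565 FPKM, a log2 fold change of −0.30 with an SE of 0.06 (adjusted p = 0.0397 in limma). This call was fragile: it held in 11 of the 19 other settings and was lost when any 1 of SLCDS replicates 1 to 3 or control replicates 1 and 2 was left out (adjusted p from 0.111 to 0.224), while it held without control replicate 3 (adjusted p = 0.00154). Of its exon bases 7.94% are shared with HOXB4 or HOXB6 on the same strand and 5.27% with antisense RNAs, and whether strand was used in counting is not given in the sources used here. HOXB4, a regulator of blood stem cells, stood at 1.93 ± 0.149 FPKM with SLCDS and 1.84 ± 0.321 FPKM in control, and HOXB6 at 2.34 ± 0.377 and 2.24 ± 0.556 FPKM. The ranges of both overlapped between the groups.

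The posterior HOXD genes carried most of the difference in summed HOX level. HOXD9, HOXD10 and HOXD11 pattern the lumbosacral spinal cord and the limb, and HOXD11 also acts with its paralogs in the forearm and kidney. HOXD11 stood at 59.4, 61.6 and 64.1 FPKM with SLCDS and at 80.6, 82.0 and 72.5 FPKM in control. HOXD10 stood at 53.0, 57.3 and 58.4 FPKM with SLCDS and at 81.9, 84.7 and 66.4 FPKM in control. In both genes every SLCDS library lay below every control library, and control replicate 3 was the control nearest to SLCDS. HOXD9 stood at 21.9, 21.4 and 20.9 FPKM with SLCDS and at 29.6, 30.8 and 45.7 FPKM in control. Here too the ranges lay apart, but control replicate 3 was the library farthest from SLCDS.

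None of the 3 passed the threshold with all 6 libraries. The log2 fold change was −0.34 for HOXD11 (SE 0.08, limma, adjusted p = 0.0506), −0.45 for HOXD10 (SE 0.11, adjusted p = 0.0542) and −0.67 for HOXD9 (SE 0.16, adjusted p = 0.0537). Without control replicate 3 all 3 passed: it was −0.39 for HOXD11 (adjusted p = 0.000126), −0.56 for HOXD10 (adjusted p = 2.57e-05) and −0.48 for HOXD9 (adjusted p = 4.38e-05). Of the 19 other settings, HOXD11 and HOXD10 passed in 3 each and HOXD9 in 7. HOXD10 and HOXD11 share 16.8% and 21.4% of their exon bases with each other, so the authors' counting could have split fragments between them. HOXD9 shares none with another gene.

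**Figure D3:**
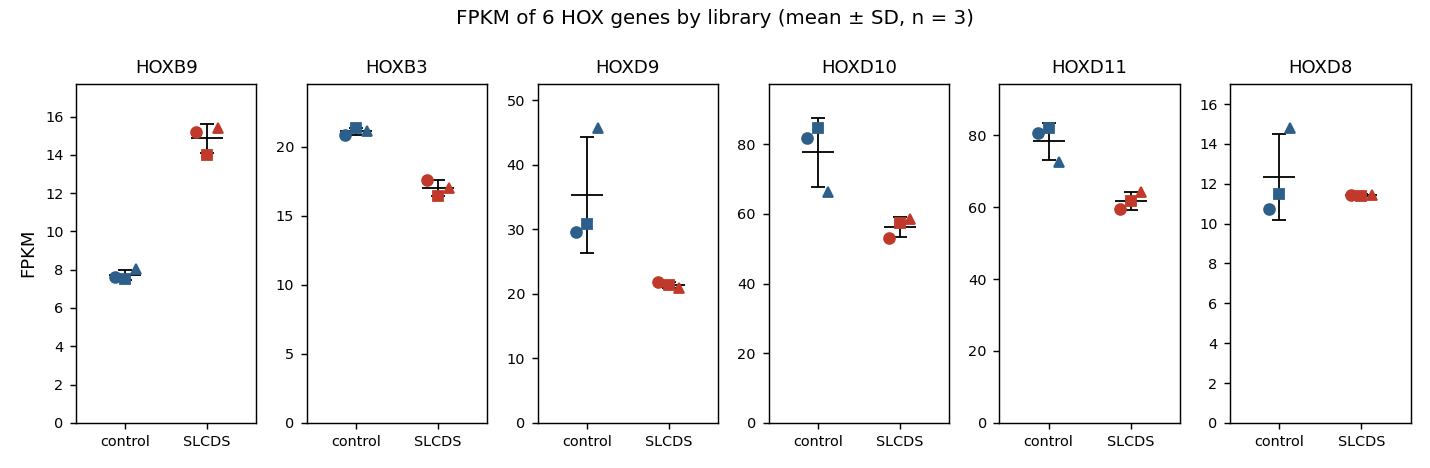
FPKM of 6 HOX genes in each control (blue) and SLCDS (red) library, circles, squares and triangles being replicates 1, 2 and 3, with mean and SD (n = 3) as bars and every axis starting at 0. HOXB9 is higher in SLCDS, HOXB3, HOXD9, HOXD10 and HOXD11 are lower with ranges apart, and HOXD8 overlaps, with control replicate 3 its high library.

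The other tested HOXD genes differed less. HOXD8, between HOXD9 and HOXD4, stood at 11.5, 11.4 and 11.5 FPKM with SLCDS and at 10.7, 11.5 and 14.8 FPKM in control, where replicate 3 was the high library and the ranges overlapped. HOXD4, a hindbrain and neck gene, stood at 15.9, 18.5 and 17.7 FPKM with SLCDS and at 20.7, 20.7 and 16.1 FPKM in control. HOXD3 stood at 6.77, 6.90 and 7.25 FPKM with SLCDS and at 8.30, 9.02 and 7.09 FPKM in control. In both genes control replicate 3 lay within the SLCDS range and the other controls above it. HOXD4 and HOXD3 did not pass with all libraries (limma, adjusted p = 0.626 and 0.350) and passed without control replicate 3 (adjusted p = 0.0170 and 0.00890). They share 80.5% and 62.2% of their exon bases with a readthrough gene on the same strand, so their values are uncertain.

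The sequences just upstream of 4 HOXD genes are printed because these neighbours span the posterior genes with separate ranges (HOXD11 and HOXD10) and the genes with overlapping ones (HOXD8 and HOXD3). They come from the RefSeq promoter table on GRCh38.p14, lie on the + strand of chromosome 2 and run 5′ to 3′ up to the annotated start or, where it came first, an annotated exon: chr2:176107030-176107279 for HOXD11, chr2:176116528-176116578 for HOXD10, chr2:176129455-176129693 for HOXD8 and chr2:176157057-176157306 for HOXD3. Capitals mark matches to 3 short motifs on either strand. The E-box is CACGTG, the box bound by nuclear factor Y is CCAAT and the HOX-PBX motif is TGATNNAT. These motifs and the TATA box were chosen after the sequences were seen.
HOXD11: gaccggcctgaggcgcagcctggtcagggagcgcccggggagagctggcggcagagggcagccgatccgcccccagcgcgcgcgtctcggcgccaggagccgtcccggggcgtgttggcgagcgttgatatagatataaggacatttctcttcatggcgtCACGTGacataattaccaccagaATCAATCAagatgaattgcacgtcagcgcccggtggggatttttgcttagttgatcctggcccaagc
HOXD10: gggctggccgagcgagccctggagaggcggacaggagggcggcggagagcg
HOXD8: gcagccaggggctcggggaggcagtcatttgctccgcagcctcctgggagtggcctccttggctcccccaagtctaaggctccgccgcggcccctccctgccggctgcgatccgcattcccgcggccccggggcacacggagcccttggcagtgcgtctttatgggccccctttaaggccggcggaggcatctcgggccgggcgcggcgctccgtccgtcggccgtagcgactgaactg
HOXD3: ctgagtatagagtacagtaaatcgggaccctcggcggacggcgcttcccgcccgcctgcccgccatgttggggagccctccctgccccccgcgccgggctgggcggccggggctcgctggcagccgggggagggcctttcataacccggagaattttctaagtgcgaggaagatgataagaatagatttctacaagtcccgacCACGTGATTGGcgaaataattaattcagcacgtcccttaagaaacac

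The window upstream of HOXD11 holds an E-box followed by a HOX-PBX match on the opposite strand, and that of HOXD3 holds an E-box that directly adjoins a CCAAT box on the opposite strand. The HOXD8 window and the printed stretch of HOXD10 hold no match, while the unprinted rest of the HOXD10 window holds an E-box and a CCAAT box. GC content over the 250 bases before the start was 61.6% for HOXD11, 64.0% for HOXD10, 72.4% for HOXD8 and 59.2% for HOXD3, with 23, 23, 28 and 21 CpG sites. The medians over 35116 such windows were 58.0% GC and 11 CpG sites, so all 4 windows were denser in CpG than the median. Over the HOX windows the medians were 58.8% GC and 19.5 CpG sites, so these 4 were closer to other HOX genes. The HOXD4 window, which is not printed, had 47.6% GC and 4 CpG sites. The E-box was found in 6.34% of all windows, in 8 of 26 HOX windows and in 5 of 8 HOXD windows, those of HOXD13, HOXD11, HOXD10, HOXD3 and HOXD1. The CCAAT box was found in 32.0% of all windows and 6 of the 8 HOXD windows, the TATA box, spelled TATAAA, in 10.7% and 1, and the HOX-PBX motif in 6.47% and 1. No match of one motif overlapped a match of another in the printed sequences. The E-box was present upstream of genes from the highest level to near 0 and of genes with separate and with overlapping ranges. Windows were found for 19 of the 37 HOX genes, and HOXB9, HOXB3 and HOXD9 are only named.

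Summed over all 37 genes, HOX expression was 302, 310.1 and 309.9 FPKM with SLCDS and 362, 366 and 364 FPKM in control. All SLCDS sums lay below all control sums, with means of 307 ± 4.73 and 364 ± 1.94 FPKM and a ratio of 0.844, also without control replicate 3. The HOXD sum made most of this difference, at 169, 178 and 181 FPKM with SLCDS and 233, 240 and 224 FPKM in control. Its ratio of means was 0.758, and its share of all HOX expression was 57.3% in SLCDS and 63.8% in control. The sums of the other clusters overlapped between the groups. The ratio was 0.959 for HOXA, 1.03 for HOXB and 0.981 for HOXC. Without control replicate 3 these ratios were 0.949, 1.07 and 1.05, so that of HOXC changed direction. By position, the sum of paralogs 9 to 13 had a ratio of 0.800, that of paralogs 4 to 8 a ratio of 0.946 and that of paralogs 1 to 3 a ratio of 0.855. Among the posterior sums, paralogs 9 to 13 of HOXD had a ratio of 0.729 and those of HOXB, where HOXB9 lies, a ratio of 1.64. HOX genes made up 0.0973% to 0.103% of each SLCDS library's FPKM sum, and 0.123%, 0.124% and 0.104% of those of control replicates 1 to 3. On that scale control replicate 3, whose total was the largest, lay near the SLCDS libraries.

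**Figure D4:**
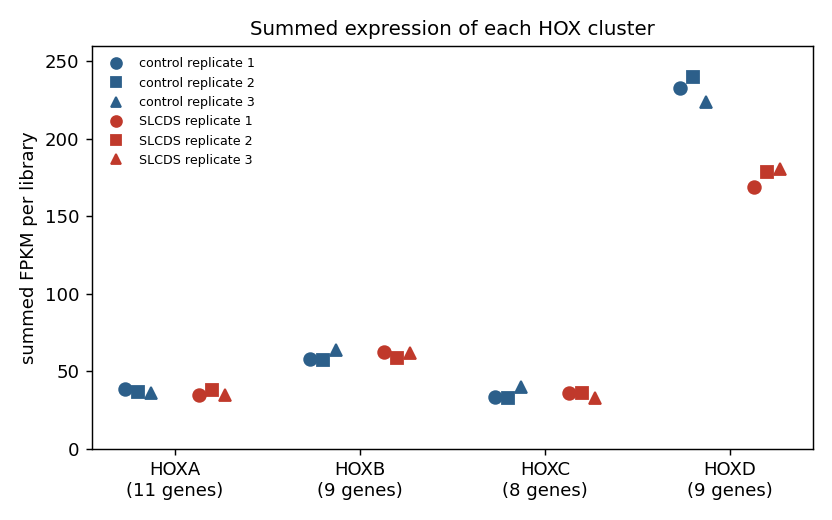
Summed FPKM of the genes of each HOX cluster in each library (linear axis from 0), circles, squares and triangles being replicates 1, 2 and 3. The HOXD sums are 169 to 181 FPKM with SLCDS and 224 to 240 FPKM in control, while the HOXA, HOXB and HOXC sums of the groups overlap.

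In the HOXA cluster no gene passed with all libraries, and 2 of 9 had an unadjusted p under 0.05. HOXA13, a gene of the distal limb and genital bud, stood at 1.69, 2.10 and 1.71 FPKM with SLCDS and at 2.74, 2.67 and 2.16 FPKM in control (log2 fold change −0.31, limma, adjusted p = 0.145). HOXA4 stood at 1.44, 1.07 and 1.45 FPKM with SLCDS and at 1.75, 1.93 and 1.78 FPKM in control (log2 fold change −0.28, adjusted p = 0.150). The ranges of both lay apart, and without control replicate 3 the adjusted p was 0.00834 for HOXA13 and 0.0499 for HOXA4. Of the others, HOXA7 stood at 10.01 ± 1.14 FPKM with SLCDS and 9.80 ± 0.108 FPKM in control, and HOXA5, which acts in lung and trunk, at 8.69 ± 0.977 and 9.42 ± 1.61 FPKM. HOXA6 stood at 6.44 FPKM with SLCDS and 6.23 FPKM in control, where replicate 3 was low at 4.23 FPKM beside 7.45 and 7.02 FPKM. HOXA7 and HOXA6 share 62.5% and 39.3% of their exon bases with the antisense RNA HOXA-AS3, so their values are uncertain where counting ignored strand. HOXA4 shares 31.0% with another annotated gene on the same strand and 16.3% with antisense RNAs, so its values are uncertain too. The anterior genes HOXA2 and HOXA3, which act in the hindbrain and the pharyngeal arches, and HOXA11, a forearm and kidney gene, had means from 0.978 to 3.38 FPKM in either group, with overlapping ranges.

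In the HOXC cluster no gene passed limma's test with or without control replicate 3, and with all libraries 0 of 7 had an unadjusted p under 0.05. HOXC4 stood at 4.80, 4.90 and 5.10 FPKM with SLCDS and at 5.58, 5.20 and 6.49 FPKM in control, with ranges apart (log2 fold change −0.18, limma, adjusted p = 0.349, and 0.261 without control replicate 3). HOXC10, which specifies lumbar motor neurons, was the most abundant HOXC gene, at 17.3, 17.5 and 15.5 FPKM with SLCDS and 16.0, 15.2 and 19.6 FPKM in control, with overlapping ranges. HOXC6, a gene of limb-level motor neurons, stood at 3.44, 3.19 and 3.00 FPKM with SLCDS and at 2.45, 3.02 and 2.49 FPKM in control (log2 fold change 0.21, adjusted p = 0.294). Its ranges overlapped through control replicate 2. HOXC13, known from hair follicles, stood at 4.23 ± 0.627 FPKM with SLCDS and 4.6 ± 0.643 FPKM in control. HOXC5, HOXC8 and HOXC9 had means from 0.930 to 2.82 FPKM in either group, also with overlapping ranges. HOXC5, HOXC4 and HOXC6 share 43.4%, 17.8% and 15.7% of their exon bases with other genes on the same strand, so their values are uncertain.

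For the 22 tested HOX genes with an unadjusted p of 0.05 or more, log2 fold changes lay between −0.19 and 0.21, and their 95% intervals between −0.45 and 0.49, with adjusted p from 0.294 to 0.983. The outer limits belong to different genes, HOXA11 and HOXA6, and each gene leaves room only for changes within its own interval. That of HOXC6 ran from −0.01 to 0.42 and that of HOXC4 from −0.40 to 0.03. Of all 29 tested genes, 14 changed the sign of their fold change in at least 1 setting and 15 kept it in all. The plot of adjusted p over the settings shows how far the calls for 5 genes moved.

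**Figure D5:**
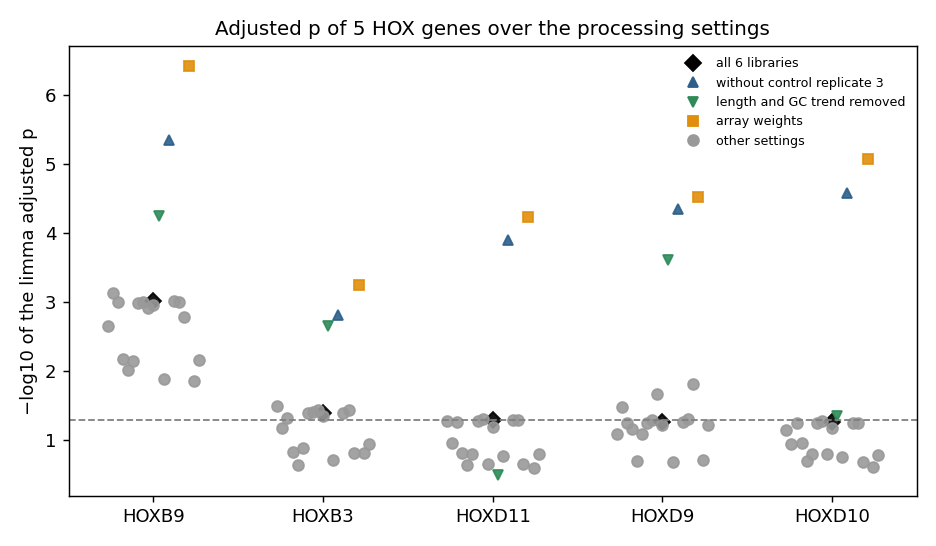
Adjusted p from limma for 5 HOX genes (−log10 scale, higher is smaller p) with all 6 libraries and under 19 other settings, 1 point per setting, the dashed line marking 0.05. HOXB9 lies above the line in every setting, while HOXB3, HOXD11, HOXD9 and HOXD10 lie on both sides of it and are highest without control replicate 3 or with array weights.

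HOX proteins act with TALE homeodomain cofactors, and of 10 such genes, all tested, 2 fell, none rose and 8 did not pass, and the median log2 fold change was −0.14. Over all tested genes 1.82% fell. PKNOX2, a MEIS-related factor, stood at 3.06, 3.46 and 2.65 FPKM with SLCDS and at 7.2, 6.89 and 6.73 FPKM in control. Its log2 fold change was −0.97 (SE 0.09, limma, adjusted p = 0.00161), and it passed in all 19 other settings. MEIS2, which with PBX proteins forms complexes on HOX target genes, stood at 51.9, 48.0 and 50.01 FPKM with SLCDS and at 62.6, 63.8 and 63.5 FPKM in control. The ranges of both genes lay apart. MEIS2 fell by 0.34 on the log2 scale (adjusted p = 0.0271), a call that was lost without any 1 of the libraries other than control replicate 3 (adjusted p from 0.0862 to 0.184). In the analysis without control replicate 3, 5 of the 10 fell, MEIS2 and PKNOX2 among them, and none rose. Over all tested genes 11.8% fell in that analysis.

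Genes that maintain HOX states passed at shares near those of all genes when every library was used. Of 11 genes of Polycomb repressive complex 2, which methylates histone H3 at silent HOX genes, 1 rose (9.09%, against 4.28% of all tested genes) and none fell, with a median of 0.04, and 1 rose and 1 fell without control replicate 3. Its most abundant members, PHF1 (log2 fold change −0.05, limma, adjusted p = 0.862) and RBBP7 (−0.05, adjusted p = 0.764), did not pass. The riser was the accessory subunit gene PHF19, named after its values were seen, at 7.58 ± 0.109 FPKM with SLCDS and 4.83 ± 0.774 FPKM in control (0.57, adjusted p = 0.025). It was lost when SLCDS replicate 1, 2 or 3 or control replicate 2 was left out, with adjusted p up to 0.129. Of 19 genes of Polycomb repressive complex 1, which compacts such chromatin, 1 rose (5.26%) and none fell, with a median of 0.13. In this list 6 rose and 2 fell without control replicate 3, which is 31.6% and 10.5% of the list, against 16.0% and 11.8% of all tested genes. RING1 (−0.18, adjusted p = 0.544) and PHC2 (0.22, adjusted p = 0.279), the most abundant, did not pass. The riser was the chromodomain gene CBX2, also named after its values were seen, at 2.91 ± 0.129 FPKM with SLCDS and 1.63 ± 0.0302 FPKM in control (0.57, adjusted p = 0.00419, passing in all 19 other settings).

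None of 13 tested genes of the MLL/COMPASS complexes, which keep HOX genes active, passed limma's test (median 0.13), with 0 at an unadjusted p under 0.05, and without control replicate 3 it was 1 in each direction. Each was 7.69% of the list, against 16.0% that rose and 11.8% that fell over all tested genes. PSIP1 stood at 52.2 ± 0.757 FPKM with SLCDS and 56.2 ± 1.72 FPKM in control and HCFC1 at 26.7 ± 0.623 and 24.4 ± 3.16 FPKM. No gene passed either among 10 MLL fusion partner and elongation genes, 1 of them at an unadjusted p under 0.05, and the count without control replicate 3 was also 0. Their most abundant members were AFF4, at 40.7 ± 1.75 FPKM with SLCDS and 34.1 ± 12.1 FPKM in control, and MLLT1, at 28.1 ± 0.909 and 28.1 ± 2.21 FPKM. The H3K27 demethylase genes KDM6A and KDM6B did not pass with or without control replicate 3, and neither had an unadjusted p under 0.05. They stood at 5.90 and 19.4 FPKM with SLCDS and at 5.74 and 18.6 FPKM in control. Of 3 hindbrain regulators of HOX genes 1 was tested. EGR2, which activates group 2 HOX genes in the hindbrain, stood at 2.39, 2.14 and 2.07 FPKM with SLCDS and at 0.525, 0.682 and 0.841 FPKM in control. All SLCDS libraries lay above all control libraries, and EGR2 rose by 0.93 on the log2 scale (SE 0.09, limma, adjusted p = 0.00194). It was under 1 FPKM in every control library and so passed the filter only through the group where it was higher. The group 2 genes in the same libraries, HOXA2 at 0.978 ± 0.381 and 1.06 ± 0.212 FPKM and HOXB2 at 0.370 ± 0.0821 and 0.307 ± 0.183 FPKM with SLCDS and control, had overlapping ranges.

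Of 8 tested glioma and astrocyte markers 2 fell: GFAP, from 339 ± 23.3 to 135 ± 7.31 FPKM (−1.32 on the log2 scale, adjusted p = 0.000596 in limma), and the gap junction gene GJA1, from 118 ± 13 to 58.8 ± 1.10 FPKM (−0.98, adjusted p = 0.00161). These are 25.0% of the list, against 1.82% of all tested genes, and 3 of the 8 had a log2 fold change above 0. Without control replicate 3, 2 rose, the progenitor filament gene NES and S100B, and 5 fell. That is 25.0% and 62.5% of the tested markers, against 16.0% and 11.8% of all tested genes. The 10 listed markers summed to 2513 to 2601 FPKM with SLCDS and 2665 to 3055 FPKM in control. None of 5 tested neuron markers of 12 passed limma's test, and 2 had an unadjusted p under 0.05. Without control replicate 3 all 5 passed: the neurofilament gene NEFL and the synaptic genes SNAP25 and SYP rose, and TUBB3 and MAP2 fell. Without that library 16.0% of all tested genes rose and 11.8% fell. The summed level of the 12 was 81.3 to 83.2 FPKM with SLCDS and 87.0 to 93.7 FPKM in control. TUBB3, a neuronal tubulin, stood at 29.5 ± 1.08 and 39.4 ± 5.12 FPKM and MAP2 at 14.7 ± 0.485 and 18.5 ± 4.62 FPKM with SLCDS and in control. NEFL stood at 28.9 ± 0.480 and 26.0 ± 3.05 FPKM, SNAP25 at 6.24 ± 0.259 and 4.85 ± 0.592 FPKM and SYP, which passed the filter only through SLCDS libraries, at 1.08 ± 0.109 and 0.714 ± 0.272 FPKM. NES, S100B, SNAP25 and SYP were named after their values were seen. Of 11 markers of fibroblasts, endothelium, immune cells and epithelium 5 were tested and 2 rose, PDGFRB (1.03, adjusted p = 0.000696) and CDH5 (1.02, adjusted p = 0.0106). They are 40.0% of those tested, against 4.28% of all tested genes, but PDGFRB, at 0.3002 to 0.439 FPKM in control, passed the filter only through the SLCDS libraries. Of the 5, 3 rose without control replicate 3, against 16.0% of all tested genes. CDH5 did not pass when SLCDS replicate 1, 2 or 3 was left out, with adjusted p up to 0.0619. This list summed to 34.7 to 39.2 FPKM with SLCDS and 25.6 to 35.1 FPKM in control. All 5 tested members had a log2 fold change above 0, while the members DCN, PTPRC and PECAM1 lay at or near 0 in every library. The part of these markers in the HOX values was not tested. None of 19 antisense and long noncoding RNAs of the HOX clusters was matched by symbol, and they were not analysed here.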

How the data were processed

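RNA was sequenced in 6 U251 libraries, 3 per group, and sample titles gave the groups and replicate numbers. The authors deposited linear FPKM values per gene symbol. Per the labels' protocols, TRIzol was used for total RNA and a VAHTS V6 kit for the libraries. GRCm38 and mm10, which are mouse builds, appear in the submitters' processing notes, although line and symbols are human. The aligner, counter, annotation and strand setting were not given in the sources used here. Absolute depth and fragment counts were inferred from the steps between low FPKM values.

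The 11506 genes that reached 1 FPKM in at least 3 libraries were analysed as log2(FPKM + 1), a scale that understates changes of low genes. SLCDS was compared with control in limma 3.58.1 (R 4.3.3) with a prior that follows the mean, 2-sided, with Benjamini-Hochberg adjustment over all tested genes and a threshold of 0.05. "Rose" and "fell" mean passing it. The procedure was tested on simulated data in which all libraries had the same spread, so that test does not cover a library that stands apart, such as control replicate 3. Ranges lie apart where every library of a group is above every library of the other. The HOX genes and the 17 gene lists were chosen with earlier results of these data known. Every HOX gene is named except 1. That gene and some list members are not reported here, though counts and sums include them. From each list the text names up to 4 genes that passed or, where fewer than 2 did, the 2 most abundant tested ones, plus fixed markers, and exceptions are stated. Alternatives were other pseudocounts, filters, scalings and priors, array weights, a replicate block and each library left out in turn. Removing each library's trend with transcript length and GC content was added after seeing the data. Lengths, GC content and exon overlaps came from GENCODE release 29, and promoters from RefSeq GRCh38.p14. Python 3.11.15, numpy 2.4.6, pandas 2.3.3 and matplotlib 3.10.9 were used.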

Additional observations from a re-analysis of the deposited data

How the results depend on the processing

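With all 6 libraries 2 HOX genes passed limma's test. Quantile normalization gave 4, array weights 9 and removal of the length and GC trend 5, and leaving out each library in turn gave 1 to 9, with 9 without control replicate 3. Over all genes 701 passed, against 3277 with array weights, 2024 with the length and GC trend removed and 276 to 3191 with each library left out. Of the members of the other gene lists 10 passed, against 41 with array weights, 32 with the length and GC trend removed and 6 to 39 with each library left out. The cause of these shifts was not tested. Tested HOX genes had a median transcript length of 1936 bases and a median GC content of 55.3%, against 3469 bases and 48.4% over all tested genes. The ratio of summed HOX FPKM, 0.844, was 0.860 with libraries scaled to the same FPKM sum. Of 361 values of 19 genes under other settings, 312 kept direction and side of the threshold, 26 no longer passed, 23 newly passed and 0 reversed. The 19 genes were picked by these same results: HOX genes with an unadjusted p under 0.05 or passing without control replicate 3, and list members that passed. The 312 include values that passed in neither setting. These counts therefore do not measure how steady HOX genes were as a whole, where 14 of 29 tested genes changed sign in at least 1 setting.

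With the replicate number as a block 1 HOX gene and 455 genes in all passed. Deviations of same-numbered libraries correlated at −0.326, 0.360 and 0.0652, and 1 of 3 SLCDS libraries correlated best with its own number. Control replicates 1 and 2 gave nearly equal correlations with each SLCDS library. This check therefore cannot tell whether the numbers pair the libraries. Low HOX genes such as HOXA9, HOXC12 and HOXD1 rest on too few fragments for a comparison at this depth.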

Other observations

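Homeobox genes outside the HOX clusters and the genes around the clusters were described in the same libraries. Of 14 genes flanking the clusters 10 were tested and none passed limma's test at an adjusted p under 0.05, with or without control replicate 3, and 0 had an unadjusted p under 0.05. The median log2 fold change was −0.04. The most abundant, CALCOCO2 near HOXB and HIBADH near HOXA, stood at 38.2 ± 0.930 and 28.9 ± 0.504 FPKM with SLCDS (SD, n = 3) and at 38.7 ± 0.525 and 30.4 ± 2.82 FPKM in control. The ParaHox gene GSX2, a forebrain progenitor factor, was the 1 tested gene of its list of 6. It stood at 2.06, 2.06 and 1.88 FPKM with SLCDS and 3.23, 3.12 and 3.45 FPKM in control, with ranges apart, and fell by 0.51 on the log2 scale (limma, adjusted p = 0.00913). Without control replicate 3 it also fell. It did not pass when SLCDS replicate 1, 2 or 3 was left out, with adjusted p up to 0.0625.

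None of 4 tested anterior brain patterning homeobox genes passed, 0 had an unadjusted p under 0.05, and without control replicate 3 the count was 1, which rose. Over all tested genes 16.0% rose and 11.8% fell without that library, the background for this list and the small lists that follow. IRX1 stood at 37.6 ± 1.73 FPKM with SLCDS and 46.5 ± 8.96 FPKM in control, and GBX2, a gene of the midbrain-hindbrain boundary, at 19.7 ± 1.70 and 17.0 ± 1.41 FPKM, so both lay at levels like those of the abundant HOX genes. None of 3 tested NKL and related homeobox genes passed, with 0 at an unadjusted p under 0.05, and without control replicate 3 there was 1 that rose, MSX1. MSX1 stood at 7.21 ± 0.0733 and 7.55 ± 2.62 FPKM and NKX6-1 at 5.74 ± 0.133 and 5.48 ± 0.632 FPKM. None of 10 tested retinoic acid genes passed, a pathway that induces HOX genes in the embryo, with a median of −0.10 and 2 at an unadjusted p under 0.05, and without control replicate 3 there were 2 that rose. RXRB stood at 37.1 ± 0.2 FPKM with SLCDS and 41.2 ± 1.94 FPKM in control and RARB at 9.51 ± 0.839 and 8.36 ± 0.591 FPKM. None of 10 CTCF and cohesin genes, which shape chromatin loops at the clusters, passed with all libraries, with 1 at an unadjusted p under 0.05, and 1 fell without control replicate 3. RAD21 stood at 55.1 ± 1.04 and 54.8 ± 2.80 FPKM and STAG2 at 37.6 ± 0.926 and 36.8 ± 7.74 FPKM.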
